A study of Schizosaccharomyces pombe with 8 samples.

Results

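The U3 small nucleolar RNA (snoRNA) genes of fission yeast, Schizosaccharomyces pombe, are the 2 genes described here: snu3 (SPSNRNA.03, annotated by RefSeq as small nucleolar RNA U3, synonym snu3A) and snu32 (SPSNRNA.07, annotated as small nucleolar RNA U3B, synonym snu3B). They were picked by identifier from the 7014 genes of an RNA immunoprecipitation (IP) table, because their measured reads were high in the control IP and low in the Lsm8 IP. The study asked which RNAs Lsm8 binds, and compared RNA that coprecipitated with c-Myc-tagged Lsm8 with RNA from a control IP. The Lsm8 IP used an anti-c-Myc antibody and an h- strain with the alleles ade6-M216 and leu1-32 as well as ura4-D18 and his3-D1, in which lsm8 carries a myc13 tag marked with natMX6 (lsm8::lsm8-myc13-natMX6). The strain behind the control IP is not named in the sources used here. The other strains that the study lists for this experiment, pof8+ and pof8Δ, have the same mating type and these alleles, but none is tied to the control IP. Each IP is represented by 1 library of 40 bp single-end unstranded reads. The study's RNA-Seq of pof8Δ and pof8+ cells gives no counts of snu3 or snu32 in the table used here, so both genes are described in the IP libraries alone.

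U3 is an abundant box C/D snoRNA of the nucleolus. Most box C/D snoRNAs guide methylation of ribosomal RNA, whereas U3 pairs with the precursor of ribosomal RNA and is needed for the cleavages that release 18S rRNA within the small subunit processome, where it is bound by Fib1, Nop56, Nop58, Snu13 and Rrp9. Lsm8 is the subunit that sets the nuclear Lsm2-8 ring, which holds the 3′ end of the U6 spliceosomal RNA, apart from the cytoplasmic Lsm1-7 ring. In Saccharomyces cerevisiae, La and Lsm proteins also bind 3′-extended precursors of U3.

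Both genes lie between other genes on the minus strand of the RefSeq assembly ASM294v3, snu3 at chrI:987570-987825 (256 bp) and snu32 at chrII:3958832-3959086 (255 bp). The next genes of the IP table are cid13 and tif308, 549 and 535 bases from snu3, and grx4 and SPBC26H8.13c, 352 and 852 bases from snu32. Neither gene overlaps another gene of the table. The antisense non-coding RNA SPNCRNA.2435, which is not in the table, overlaps snu3 by 133 bases, and without strand its reads and those of snu3 cannot be told apart. Because the sequences decide which reads can be given to each gene, they are shown 5′ to 3′. In snu32, capitals mark the first 90 bases, which are identical to a second copy of U3 on chromosome I. In that copy, at chrI:987692-987947, capitals mark the 134 bases that fall within the RefSeq interval of snu3.
snu32: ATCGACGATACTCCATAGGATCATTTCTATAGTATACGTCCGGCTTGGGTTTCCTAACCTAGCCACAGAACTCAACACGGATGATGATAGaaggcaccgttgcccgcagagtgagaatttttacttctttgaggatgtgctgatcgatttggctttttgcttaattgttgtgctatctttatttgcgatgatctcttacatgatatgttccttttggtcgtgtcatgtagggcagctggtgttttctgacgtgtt
chromosome I copy: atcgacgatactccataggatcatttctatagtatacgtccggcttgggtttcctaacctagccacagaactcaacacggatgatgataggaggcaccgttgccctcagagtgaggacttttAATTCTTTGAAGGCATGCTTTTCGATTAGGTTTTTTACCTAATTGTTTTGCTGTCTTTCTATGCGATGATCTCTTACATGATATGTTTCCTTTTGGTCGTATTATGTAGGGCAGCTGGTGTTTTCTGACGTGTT

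The copies were identical at 234 of the positions, with 21 mismatches and 1 gap position (91.4% identity), and they shared their last 31 bases as well as their first 90. RefSeq places snu3 122 bases further along the strand than this copy. Its interval holds the 3′ part of the copy (134 of 256 bases, 52.3%), where 18 of the 22 differences between the copies lie, and another 122 bases that follow the copy at chrI:987570-987691. This stretch, shown because it makes up the rest of the interval, lies outside the alignment with snu32.
snu3 interval after the copy: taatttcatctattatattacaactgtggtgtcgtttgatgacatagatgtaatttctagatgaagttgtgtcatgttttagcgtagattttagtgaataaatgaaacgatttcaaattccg

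The tetramer CTGA, the box D core, was looked for on the gene's strand in the last 20 bases. It was present in snu32 and in the chromosome I copy, with 6 bases after it, and absent there from the RefSeq interval of snu3. It occurred in the last 20 bases of 32 of the 64 listed snoRNAs (50.0%) and of 4.64% of the 6814 listed genes for which a RefSeq interval was used. The authors counted reads on ASM294v2, and the interval they used for snu3 is not in the sources used here. Whether it has the same offset was not tested.

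The authors kept only uniquely mapped reads, which leaves out reads from the stretches that the copies share. Of the 216 starts that a 40-base read can have within snu32, 165 (76.4%) gave a sequence found once in the genome. The 51 others, at its 5′ end, occur at the chromosome I copy too. In the chromosome I copy 166 of 217 starts (76.5%) were unique, and in the RefSeq interval of snu3 all 217 were. Reads over the shared 5′ end can thus be counted for neither gene, in either IP. The loss is set by sequence and not by library, but reads need not be spread along U3 in the same way in both IPs, and this was not tested.

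**Figure D1:**
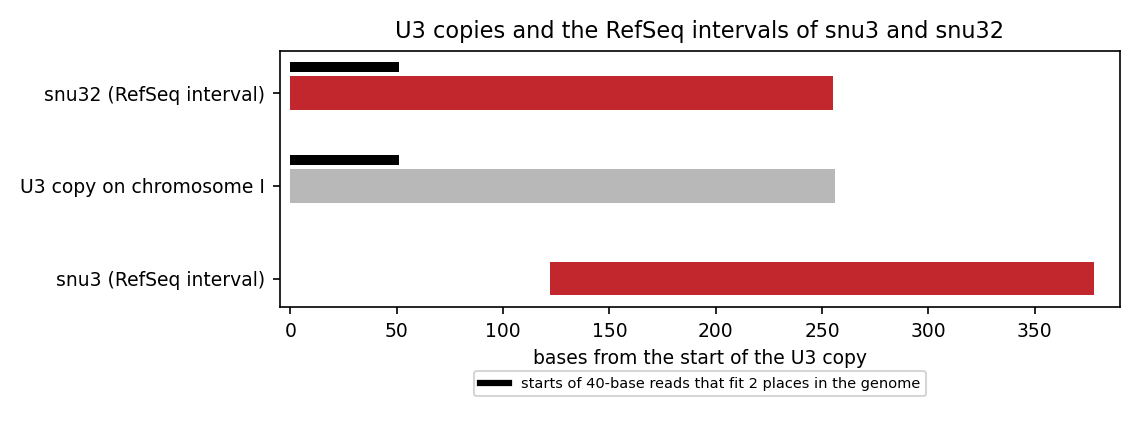
Bars show the U3 copies and RefSeq intervals by distance in bases from the start of the U3 copy, and black lines mark the 51 starts of 40-base reads that occur at 2 places in the genome. The RefSeq interval of snu3 starts 122 bases into the chromosome I copy and runs 122 bases past its end, while the interval of snu32 covers the whole of its copy.

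The gene snu3 had 154 reads in the Lsm8 IP library, against 1136 reads in the control IP library. Divided by the median count of genes with at least 1 read in each library (108 reads in the Lsm8 IP against 43 in the control IP), this was 1.43 normalized counts in the Lsm8 IP against 26.4 in the control IP. The ratio of the Lsm8 IP to the control IP was 0.0540 (95% counting interval 0.0453 to 0.0639), a log2 ratio of -4.21. The control IP level was thus 18.5-fold the Lsm8 IP level (15.6 to 22.1). As a share of all counted reads, snu3 held 0.00233% in the Lsm8 IP against 0.121% in the control IP.

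The gene snu32 had 1049 reads in the Lsm8 IP library, against 3390 in the control IP library. Its normalized counts were 9.71 in the Lsm8 IP against 78.8 in the control IP, a difference of -69.1. The ratio was 0.123 (0.115 to 0.132), a log2 ratio of -3.02, and the control IP level was 8.12-fold the Lsm8 IP level (7.57 to 8.71). Its share of all counted reads was 0.0159% in the Lsm8 IP against 0.360% in the control IP. Both U3 genes were thus lower in the Lsm8 IP library, and snu32 held more reads than snu3 in each library. Summed over both genes, U3 had 1203 reads in the Lsm8 IP against 4526 in the control IP, a ratio of 0.106 (0.0992 to 0.113).

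With 1 library per IP there is no replicate check, and no test was made. These values compare the 2 libraries and not the conditions. The 95% intervals on ratios and proportions of reads, here and throughout, come from the exact Clopper-Pearson method. That on the quotient of snu3 and snu32 reads, given below, comes instead from the conditional method for an odds ratio. All of them take in counting error alone. Because these same reads chose the genes, the low ratios are a description. The Lsm8 IP library held 6604836 counted reads and the control IP library 942080, without 98 genes with reads in the control IP alone, whose counts could not be worked back.

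The ratio of snu3 was lower than that of snu32. For every read of snu32 there were 0.147 reads of snu3 in the Lsm8 IP against 0.335 in the control IP, and the quotient of these, 0.438 (0.363 to 0.527), needs no scaling of the libraries. The proportion of snu3 to snu32 was thus 2.28-fold (1.90 to 2.76) lower in the Lsm8 IP, a gap wider than counting error. Over the RefSeq intervals, however, the counts of snu3 and snu32 come from different parts of U3. A difference between the genes cannot be told apart here from a different spread of reads along U3 in each IP, and neither was tested. Per kilobase of RefSeq interval, snu3 had 602 reads in the Lsm8 IP against 4438 in the control IP, and snu32 had 4114 in the Lsm8 IP against 13294 in the control IP. Among 33 small or structural RNAs with at least 10 control reads, this put snu3 at rank 28 in the Lsm8 IP against 8 in the control IP. The ranks of snu32 were 18 in the Lsm8 IP against 5 in the control IP. These values and ranks do not set like against like. The RefSeq interval of snu3 holds 134 bases of the chromosome I copy and 122 bases that follow it. In snu32, reads from 51 of the 216 starts cannot be counted. If the authors counted over other intervals than RefSeq's, these values per kilobase would differ.

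Across the whole table, snu3 was in place 2418 of 7014 genes by its Lsm8 IP reads, and in place 148 by its control IP reads. For snu32 the places were 254 in the Lsm8 IP against 21 in the control IP. Among the 5523 genes with at least 10 control reads, the ratio of snu3 was the second lowest. The 98 genes with reads in the control IP alone, whose ratio is 0 and whose counts are unknown, are not among them, nor among the genes of similar coverage. Below snu3 stood the tRNA gene SPBTRNAGLN.01, with 2 reads in the Lsm8 IP against 23 in the control IP. The ratio of snu32 was in place 30 from the lowest. The median ratio of these 5523 genes was 0.877, and 58.8% of them were below 1.

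**Figure D2:**
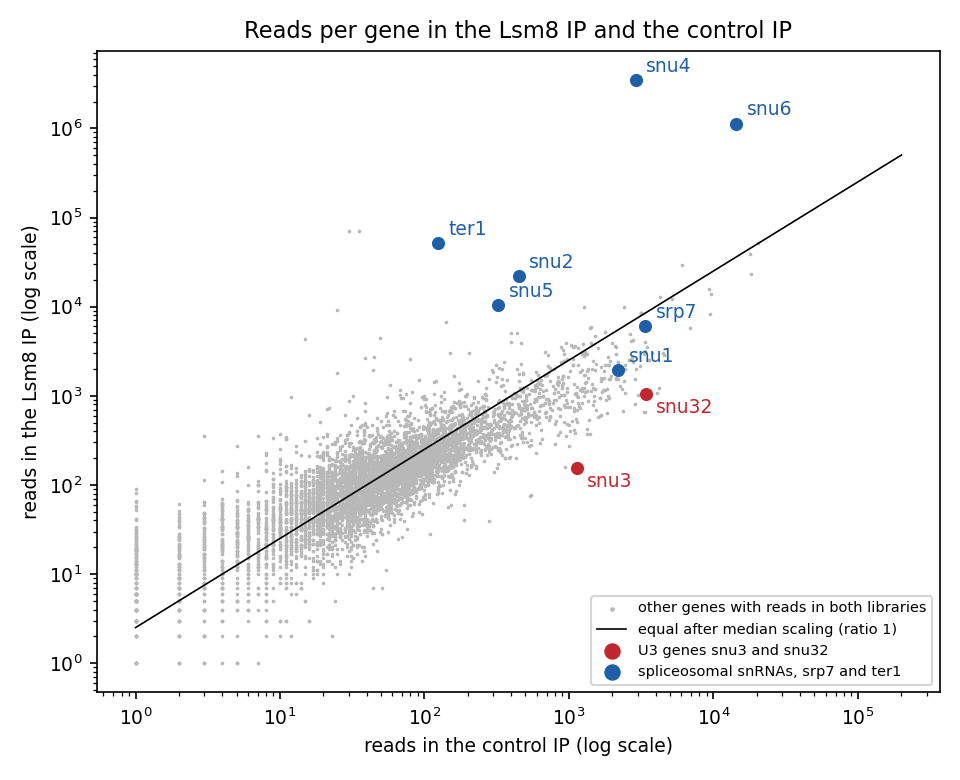
Each point is a gene with reads in both libraries, placed by its reads in the Lsm8 IP (vertical log axis) and in the control IP (horizontal log axis), and the line marks a ratio of 1 after scaling by the library medians. The U3 genes (red) lie at the lower edge of the cloud, snu3 with 154 and snu32 with 1049 Lsm8 IP reads, whereas snu4, snu6 and ter1 lie far above the line.

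Genes with many control reads had low ratios in general, so both U3 genes were set against genes of similar coverage. The median ratio was 1.22 for the 1496 genes with 10 to 29 control reads, 0.749 for the 1042 genes with 100 to 299, 0.363 for the 142 genes with 1000 to 2999, and 0.443 for the 32 genes with 3000 or more. A gene was called lower in the Lsm8 IP where its ratio was below 0.5 and its normalized count in the control IP was higher by 10 or more. These thresholds mirror those of the study's rule for enrichment. The study scaled by the medians over all listed genes, so its cut is not quite the same. Both U3 genes met the rule used here, which 151 of the 6578 genes with reads did (2.30%), with these 98 taken as not meeting it. The share was 47.3% (115 of 243) among genes with 0.5 to 2 times the control reads of snu3, and 72.0% (54 of 75) among those with 0.5 to 2 times the control reads of snu32. At their coverage, then, meeting the rule was common and did not by itself set the U3 genes apart.

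The 243 genes around snu3, with 568 to 2272 control reads, had a median ratio of 0.458, which is 8.48 times the ratio of snu3. None of them (0 of 243) had a ratio at or below that of snu3, which was picked for these values, and the lowest was 0.0663. That gene, SPNCRNA.1376, had 157 reads in the Lsm8 IP against 943 in the control IP, but it overlaps tef103 and without strand the reads of these genes cannot be told apart. The next 4 genes by likeness of ratio encode proteins of the large ribosomal subunit: rpl2701 (0.105), rpl2402 (0.109), rpl502 (0.112) and rpl2802 (0.128). They lay 0.96 to 1.24 log2 units above snu3. Next to snu3 in the order of control reads were rps801, with 507 reads in the Lsm8 IP and the same 1136 in the control IP (ratio 0.178), and rps403, with 2191 in the Lsm8 IP against 1146 in the control IP (ratio 0.761). Both encode small ribosomal subunit proteins. The interval of snu3 overlapped that of SPNCRNA.1376 (0.0556 to 0.0786) and of no other of the 5 genes nearest in ratio. Just under this range of control reads lie SPNCRNA.242 (540 control reads) and SPNCRNA.965 (545), at ratios of 0.0553 (0.0428 to 0.0705) and 0.0563 (0.0437 to 0.0715), which could not be told apart from that of snu3. They overlap each other, and were named after their values were seen.

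The 75 genes around snu32, with 1695 to 6780 control reads, had a median ratio of 0.358, 2.91 times that of snu32. Of these, 6 (8.0%) had a ratio at or below that of snu32. They were chc1, which encodes clathrin heavy chain (0.0780), the 5S rRNA gene SPRRNA.53, tif512 for a putative eIF5A, rmi1, rps102 for a small ribosomal subunit protein, and the kinetochore gene spc24. The genes tif512 and spc24 overlap, rmi1 overlaps myh1, and 5S rRNA has other near-identical copies, so that 4 of the 6 counts are uncertain. The genes nearest in ratio were spc24 (0.117), rps102 (0.115), rmi1 (0.114), rps2 (0.137) and SPNCRNA.741 (0.138), and their intervals overlap that of snu32 (0.115 to 0.132). Of these, rps2 and SPNCRNA.741 overlap other genes as well. Next to snu32 in the order of control reads were srp7 (3377 control reads, ratio 0.710) and met26, with 3501 reads in the Lsm8 IP against 3447 in the control IP (ratio 0.404). In ratio, snu32 could thus not be told apart from several genes of its coverage.

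**Figure D3:**
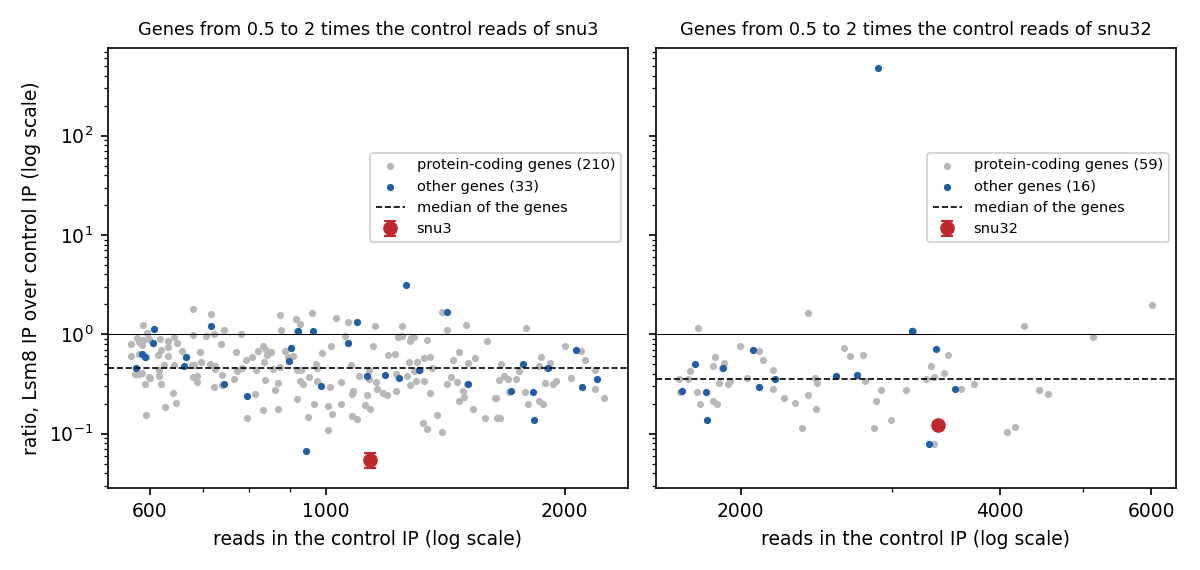
Ratios of the Lsm8 IP to the control IP (vertical log axis) of genes with 0.5 to 2 times the control reads of snu3 (left) and of snu32 (right), against their control reads (log axis), with each U3 gene in red with its 95% counting interval. No other gene in the left panel lies at or below snu3, and 6 of 75 in the right panel lie at or below snu32.

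The closest structural RNA in coverage was srp7, the 7SL RNA of the signal recognition particle, which has the same annotated length as snu32. It had 6024 reads in the Lsm8 IP against 3377 in the control IP, a ratio of 0.710 (0.681 to 0.741). The ratio of snu32 was 0.173 times that of srp7, and the ratio of snu3 was 0.0760 times that of srp7. Among the spliceosomal RNAs, snu1 was the one below 1, with 1953 reads in the Lsm8 IP against 2193 in the control IP (0.355, 0.333 to 0.377). Both U3 genes lay below it, snu32 at 0.347 times and snu3 at 0.152 times the ratio of snu1. The ratios of snu2, snu4, snu5 and snu6 were 19.4, 482, 12.8 and 31.4, and that of the telomerase RNA ter1 was 165. The RNase P RNA rrk1 was at 2.51, from 1481 reads in the Lsm8 IP against 235 in the control IP, and overlaps another gene. The RNase MRP RNA mrp1 had 0 counted reads in both libraries, as did 436 listed genes in all, and so has no ratio. Whether this comes from the RNA or from how reads were counted was not tested. The 5 spliceosomal RNAs took 70.6% of Lsm8 IP reads, against 2.14% of control IP reads.

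Among snoRNAs, the U3 genes dominated the control IP and not the Lsm8 IP. Of the reads on the 64 listed snoRNA genes, both U3 genes together held 3.42% in the Lsm8 IP (of 35180 reads) and 50.4% in the control IP (of 8989 reads). At least 10 control reads were found for 22 other snoRNAs, of which 10 had a ratio below 1 and 12 a ratio above 3, with a median of 3.24. The 5 with the most control reads, all annotated as box H/ACA snoRNAs, which guide pseudouridylation, went both ways. Ratios above 3 were found for sno12, with 9931 reads in the Lsm8 IP against 1261 in the control IP (3.14, 2.96 to 3.33), and for snR42 (3.35). Ratios below 1 were found for sno20 (0.591), snR46 (0.764) and snR92 (0.182), of which sno20 and snR92 overlap another gene. The control reads of sno12 lie between those of snu3 and snu32, and its ratio lay on the other side of 1.

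Low ratios were not particular to U3 among the snoRNAs. Of the 22 other snoRNAs, snR191 and snR94 had ratios below that of snu32. Among all 5523 genes with at least 10 control reads, 29 others were at or below snu32. The interval of snR191 (0.0553, 0.0385 to 0.0774), with 39 reads in the Lsm8 IP against 281 in the control IP, spans the value of snu3. It overlaps nog2, has no class in its annotation, and is a box H/ACA snoRNA in Saccharomyces cerevisiae. The interval of snR94 (0.0843, 0.0583 to 0.119), with 40 reads in the Lsm8 IP against 189 in the control IP, overlaps that of both U3 genes and no other gene overlaps it. Of the 12 annotated box H/ACA snoRNAs, 8 were below 1 and the median was 0.787. Of the 10 with another annotation, 8 were above 3 and the median was 5.50. Among these were snoU14, with 6772 reads in the Lsm8 IP against 142 in the control IP (19.0), snoR61 (12.9), sno52 (8.53), snR40 (7.41), snoR69 (6.89) and snr79 (4.12), whose Saccharomyces cerevisiae counterparts are, like U3, box C/D snoRNAs. Of these, sno52 overlaps taf9 and snr79 overlaps gpi12, so that their reads cannot be separated. The RefSeq interval of snoR61 is 653 bases long, so its count may not be of the snoRNA alone. With 10 control reads each, the fewest admitted, snR40 (3.94 to 15.7) and snoR69 (3.66 to 14.6) have wide intervals. The U3 genes lay on the opposite side of 1 from these 6 genes, all of which had fewer control reads than either U3 gene. The snoRNAs snR191, snR94, snoR61 and those after it were named after their values were seen.

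**Figure D4:**
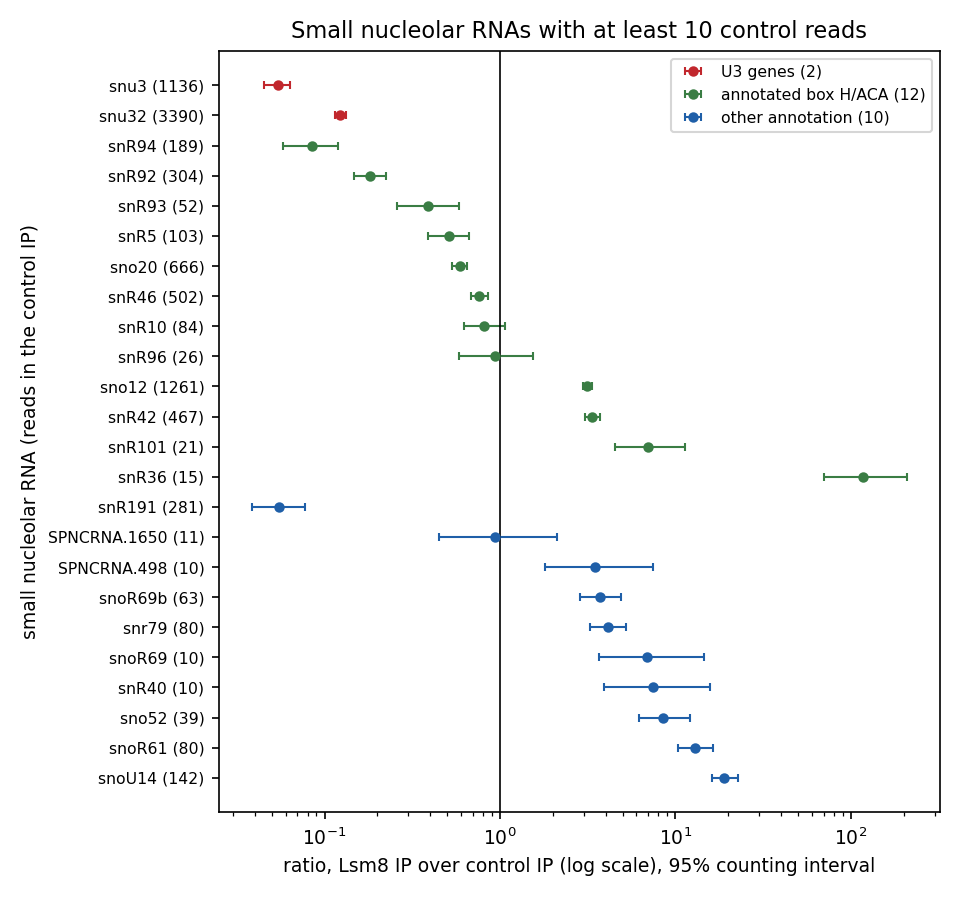
Ratios of the Lsm8 IP to the control IP (log axis) of the 24 snoRNAs with at least 10 control reads, with 95% counting intervals and control reads in brackets. The U3 genes (red, top) lie at 0.0540 and 0.123, and 12 of the 22 others lie above 3.

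Of the messenger RNAs of proteins that work with U3, in the box C/D core, the U3 particle and the small subunit processome, 51 had at least 10 control reads. A further name of the list, dim1, belongs to a spliceosomal protein in Schizosaccharomyces pombe and was left out after the list was made. Ratios were below 1 for 42 of the 51 (82.4%), beside 58.8% of all genes with at least 10 control reads, and above 2 for 3. The median was 0.659. Control reads of 42 of these genes were between 30 and 299, where the median of all genes was 0.900 (30 to 99 reads) and 0.749 (100 to 299 reads). The lowest ratio was that of slx9 (0.199) and the highest that of rrp36 (3.44). None of these genes met the rule for a gene lower in the Lsm8 IP. With at most 10.4 normalized counts in the control IP, they had little or no room for the difference of 10 that it asks for. For lsm1 to lsm8, the La gene sla1 and pof8, 6 of 10 were below 1, near the 58.8% of all genes, with a median of 0.899 and a range from 0.322 (lsm7) to 3.77 (lsm2).

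Both ratios stayed below 1 under all 7 alternative scalings, but their size did not hold. Scaled to total counts, of which the spliceosomal RNAs take most in the Lsm8 IP, the ratio was 0.0193 for snu3 and 0.0441 for snu32, and the median of genes with at least 10 control reads was 0.314. Relative to that median, snu3 was at 0.0616 and snu32 at 0.141 under every scaling, since a scaling moves all genes together.

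**Figure D5:**
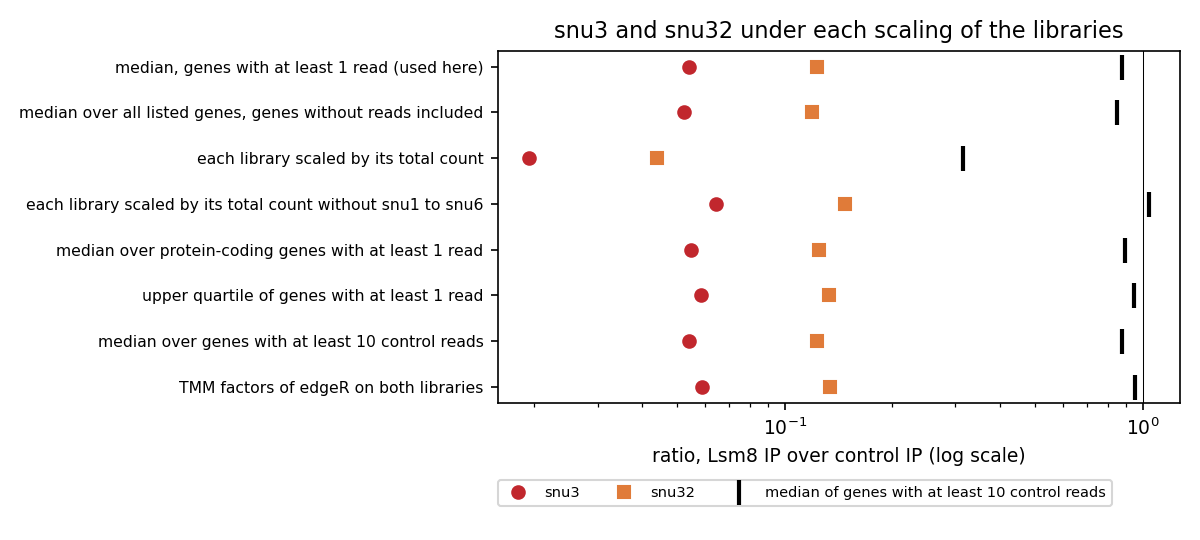
Ratio of the Lsm8 IP to the control IP (log axis) for snu3, snu32 and the median of genes with at least 10 control reads, under the scaling used here and 7 others. Total-count scaling gives the lowest values, 0.0193 and 0.0441, and in every row both U3 genes lie below the median.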

How the data were processed

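RNA from 1 Lsm8 IP and 1 control IP was analyzed, with groups taken from the sample labels. The authors aligned the reads to ASM294v2 with STAR 2.5.2b, counted per gene, on either strand, reads they describe as unambiguous and uniquely mapped, and divided by the library median. Overlapping genes can still hold equal counts. For example, sno20 and SPBC1921.04c, which overlap, both had 666 control reads and a ratio of 0.591. The sets of genes of similar coverage may therefore count the same reads more than once. The authors deposited this signal for the Lsm8 IP, and its ratio to the signal of the control IP. Read counts were worked back by multiplying with the medians over all listed genes, 96 and 37 reads. For both columns 100% of the recovered values were whole within 1e-06. In the control IP this covers the 6323 genes with reads in both libraries. A further 157 genes had reads in the Lsm8 IP only, 98 in the control IP only and 436 in neither. Setting the 98 unassigned control counts to 1 or to 36 left the control medians at 37 and 43, and setting them to 38 gave 38 and 43.

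Normalized counts used the median over genes with at least 1 read, and no pseudocount was added. A count test such as that of edgeR needs replicates, so none was run on the recovered reads, and edgeR 4.0.16 in R 4.3.3 gave TMM factors only. Gene names, classes, overlaps, lengths and sequences came from RefSeq ASM294v3, in which 6846 of the 7014 identifiers were found. No position was converted between builds. Biopython 1.88 (local alignment of U3), pandas 2.3.3, SciPy 1.17.1, NumPy 2.4.6 and Matplotlib 3.10.9 were run in Python 3.11.15. The recovery and the Clopper-Pearson intervals on ratios were tested on simulated data. The RNA-Seq table lists neither U3 gene and was not used.

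The genes and lists were chosen with earlier results of these data known. Genes named for comparison were the spliceosomal RNAs, srp7, rrk1, mrp1, ter1, the 5 genes nearest in ratio and both neighbours in control reads of each U3 gene, the 5 other snoRNAs with the most control reads, and the lowest and highest of each protein list (57 and 10 names). Of the 57 names, 52 genes were found, dim1 among them. Alternatives covered scaling, a pseudocount of 1 read, the thresholds, the width of the coverage range, overlapping genes and gene classes.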

Additional observations from a re-analysis of the deposited data

How the results depend on the processing

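All 8 alternatives kept each U3 gene below a ratio of 1, and 31 of 41 alternative values lay within the interval, or within 1.5 times the count, of the value reported. Scaling to the total count, the ratio was 0.0193 for snu3 and 0.0441 for snu32, and 284 genes were called lower in the Lsm8 IP. Without snu1 to snu6 in the total, the ratios were 0.0642 and 0.147. For snu32 the upper quartile gave 0.133 and TMM factors gave 0.134. These 3 scalings moved all genes by 0.25, 0.11 and 0.12 on the log2 scale, and the total count by -1.48. The count of genes called lower was 1143 with no minimum difference, 56 with a ratio below 0.25 and 79 without overlapping genes. In each case the rule itself admits more or fewer genes. The 1143 also take in the 98 genes with reads in the control IP alone, which the main count leaves out. The share of genes at or below snu3 stayed 0 in all 3 alternatives, and that for snu32 ranged from 6.25% to 14.6%. With both U3 genes included, 12 of 24 snoRNAs were below 1 in the main setting. The number was 10 to 12 under every alternative, so some snoRNAs crossed 1.

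No paired analysis was possible because each IP has 1 library and the RNA-Seq libraries, whose labels share replicate numbers, hold no counts of either U3 gene. With 1 library per IP, none was left out. The value of snu3 rests on 154 reads in the Lsm8 IP, so counting error limits it more than that of snu32, and the spread between IPs is unknown.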
